A study of Mus musculus with 4 samples.

Results

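The 8 genes described here encode 4 EphA receptors (Epha3, Epha4, Epha5 and Epha7) and 4 ephrin-A ligands (Efna2, Efna3, Efna4 and Efna5). They were taken by gene symbol from a list chosen with earlier results of these data known, and are 8 of the 32285 genes in the count tables. The data are 10x Genomics single-cell RNA sequencing of e14.5 mouse embryos, from the medial ganglionic eminence (MGE), the part of the ventral forebrain where many cortical interneurons are born. The groups were St18(-/-), named null below, with 2 libraries, and WT, also with 2, all on a C57/BL6 ICR mix. Per the labels and the study's methods, the null is a whole-animal germline allele that lacks internal exons of St18, embryos came from heterozygous parents, and tissue of 1 genotype was pooled. How many embryos of which sex made up a pool was not stated, so each library is 1 pool and n = 2 per genotype. Cells with at least 3000 unique molecular identifiers (UMIs) and at most 10% mitochondrial UMIs were kept, which left 17982 neurons and progenitors among 19031 cells.

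Eph receptors are receptor tyrosine kinases that are activated by ephrins on the surface of neighbouring cells. EphA receptors bind mainly ephrin-A proteins, which are held in the membrane by a lipid anchor, while EphB receptors bind mainly transmembrane ephrin-B proteins, and EphA4 binds both kinds. Contact often leads to repulsion of the cell or axon that carries the receptor, and signals can also run back into the cell that carries the ephrin. In the ventral forebrain these proteins are known for guiding migrating cortical interneurons around the striatum and for sorting striatal and thalamic axons.

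The labels were checked with St18, a zinc finger transcription factor. Scaled to 1000000 summed neuron counts (CPM), St18 reached 24.7 and 74.8 in the first and second null library and 43.8 and 59.0 in the first and second WT library. Null replicate 2 lay above both WT libraries, which goes against its label, although the allele still gives transcript and so checks the label only in part. Both null libraries exceeded both WT libraries in the share of cluster N2 and fell below both in N3, as given below. In N2, however, null replicate 1 (10.2%) was nearer to the WT libraries (3.43% and 3.46%) than to null replicate 2 (21.2%). In N1, null replicate 1 (16.2%) lay above and null replicate 2 (3.67%) below the WT libraries (13.1% and 9.43%). In N3 the null libraries were at 3.28% and 2.21% and the WT libraries at 16.3% and 12.8%. Null replicate 2 was thus the library farthest from WT in N2 and N3, on the side of null replicate 1, which goes with its label. The share of N1 did not separate the genotypes. Shares of clusters do not read the allele itself, so they do not settle the label. Cells with at least 3 UMIs of Xist, the RNA of the inactive X chromosome, were 35.3% and 64.8% of the neurons and progenitors of null replicates 1 and 2 and 0% of those of both WT libraries, so sex and genotype cannot be told apart in the full libraries. In neurons classed male (with a UMI of Ddx3y, Eif2s3y, Uty or Kdm5d and no more than 1 of Xist) St18 was at 28.8 and 29.7 CPM in the null libraries and at 47.3 and 64.7 CPM in the WT libraries, which did not overlap. In neurons classed female (at least 3 Xist UMIs and no UMI of those genes) it was at 22.6 CPM in null replicate 1 and at 94.8 CPM in null replicate 2. Fold changes of the members between genotypes are therefore given for all cells, without null replicate 2 and, where they were tested, for male-classed cells, while cluster counts, shares and the medians of other gene lists are for all cells.

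The libraries held 70991150 to 92984713 UMIs in all barcodes, and a kept cell had a median of 6186 to 9352 UMIs, most in null replicate 2. Pairs of libraries shared 4 to 11 cell barcodes, where 2.29 to 4.40 would be shared by random draws. Neurons and progenitors were called by their markers. The 10 neuron markers summed to 7444 to 8815 CPM in neurons and 2275 to 2831 CPM in progenitors, and the 13 progenitor markers to 1097 to 1422 CPM and 5767 to 7046 CPM. Clustering, from which all Eph and ephrin genes were left out, gave 18 neuron clusters (N) and 15 progenitor clusters (P) with at least 20 cells in every library. Clusters are numbered and carry a name ending in "-like" only where at least 3 markers of 1 type were enriched.

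All 8 genes are protein coding and lie on 7 chromosomes (GRCm38 coordinates, GENCODE M21). The receptor genes are long: Epha3 on the minus strand at chr16:63543534-63864175, Epha4 on the minus strand at chr1:77367185-77515088, Epha5 on the minus strand at chr5:84054761-84417382 and Epha7 on the plus strand at chr4:28813131-28967499. Among the ligands, Efna2 (plus strand, chr10:80179482-80190010) is compact and Efna5 (minus strand, chr17:62604184-62881317) spans 277.1 kb. Efna3 (chr3:89313899-89322965) and Efna4 (chr3:89333390-89338028) are neighbours on the minus strand, 10.4 kb apart with no annotated gene between them. Antisense genes with rows of their own overlap Epha7 (Gm11915), Efna3 (Gm15998) and Efna4 (4731419I09Rik). The sources used here do not state whether counting used strand, so reads of these 3 members and their antisense partners may not be told apart.

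Promoter windows of 4 members are shown because the comparisons below turn on them: Epha4 and Epha5, the receptors set side by side across neurons, and the neighbours Efna3 and Efna4, which went opposite ways. Each runs from 250 bases before to 50 bases after the gene's start in RefSeq (GRCm38.p6), 5′ to 3′ on the gene's strand. The RefSeq start of Efna3 differs slightly from the GENCODE end given above, and the first of its 2 RefSeq windows is shown. Capitals mark AAGTT, the core bound by the zinc fingers of the Myt1 family to which St18 belongs, and TAATTA, a core bound by many homeodomain proteins, on either strand.
Epha4, minus strand, chr1:77515039-77515338: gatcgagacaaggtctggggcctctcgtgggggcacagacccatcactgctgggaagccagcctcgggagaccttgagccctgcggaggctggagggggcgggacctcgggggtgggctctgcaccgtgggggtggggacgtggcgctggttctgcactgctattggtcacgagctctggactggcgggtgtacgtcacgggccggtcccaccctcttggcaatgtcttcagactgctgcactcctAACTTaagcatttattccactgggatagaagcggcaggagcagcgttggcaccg
Epha5, minus strand, chr5:84417333-84417632: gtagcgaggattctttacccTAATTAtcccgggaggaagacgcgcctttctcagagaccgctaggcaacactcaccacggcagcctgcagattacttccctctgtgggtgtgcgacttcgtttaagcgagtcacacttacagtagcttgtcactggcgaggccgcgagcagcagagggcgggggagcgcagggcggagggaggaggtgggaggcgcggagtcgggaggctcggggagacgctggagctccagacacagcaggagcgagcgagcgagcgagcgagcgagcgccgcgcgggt
Efna3, minus strand, chr3:89322890-89323189: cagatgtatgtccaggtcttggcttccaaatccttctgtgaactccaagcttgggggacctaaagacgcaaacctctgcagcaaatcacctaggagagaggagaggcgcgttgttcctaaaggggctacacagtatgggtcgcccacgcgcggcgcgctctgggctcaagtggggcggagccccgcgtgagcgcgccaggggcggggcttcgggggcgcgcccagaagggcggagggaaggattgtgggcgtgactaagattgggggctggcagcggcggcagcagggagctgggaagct
Efna4, minus strand, chr3:89337979-89338278: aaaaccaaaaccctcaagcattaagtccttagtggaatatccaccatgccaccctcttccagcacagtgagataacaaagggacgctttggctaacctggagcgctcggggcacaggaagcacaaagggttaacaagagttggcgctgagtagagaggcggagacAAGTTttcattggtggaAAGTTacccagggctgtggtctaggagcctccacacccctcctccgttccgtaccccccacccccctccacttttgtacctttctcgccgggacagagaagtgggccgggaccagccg
The AAGTT core occurred 1 time in the Epha4 window and 2 times in each of the Epha3 and Efna4 windows, and in none of the windows of the other 5 members. It is common: 39.2% of 32544 promoter windows held it. TAATTA occurred 1 time, in the Epha5 window, and 5.29% of all windows held it. A match is a description of these letters and not a binding site.

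The first comparison asked how receptors and ligands change from progenitors to neurons. Both neuron-enriched and progenitor-enriched members were found among receptors and among ligands. The receptor Epha5 and the ligand Efna3 were far higher in neurons, Epha4, Epha7 and Efna2 were higher in neurons by less, and the ligand Efna4 and the receptor Epha3 were higher in progenitors. The Epha7 call was lost at equal depth per cell, and Efna5 did not pass the test. Sums of counts per library and class were compared within libraries with the edgeR quasi-likelihood test and Benjamini-Hochberg adjustment over 13713 genes. Of the 8 members, 7 passed an adjusted p of 0.05, 5 of them higher in neurons and 2 higher in progenitors. The classes differ so widely that 80.6% of all genes tested passed, 40.8% higher in neurons and 39.8% higher in progenitors, so the count of 7 is close to that of any genes and the sizes carry more than the calls. In such sums, fewer cells with a transcript and less RNA per cell cannot be told apart.

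Among the receptors, Epha5 was low in progenitors, where the null pair held it at 61.2 and 90.3 CPM and the WT pair at 61.3 and 48.9 CPM. Null neurons reached 777 and 915 CPM and WT neurons 730 and 526 CPM. Every library's neurons were far above every library's progenitors, with a log2 fold change of 3.45 (SE 0.05, edgeR adjusted p = 6.67e-18). Barcodes with under 100 UMIs held Epha5 at 108 to 190 CPM, above the level in progenitors, and whether free RNA gave the progenitor counts was not tested. Thinned to 3000 UMIs per cell, 13.3% ± 3.20 (SD, n = 4) of progenitors had an Epha5 UMI, against 8 of 99 microglia (8.08%, 95% exact interval 3.55% to 15.3%) and 6 of 153 erythroid cells (3.92%, 1.45% to 8.34%), which should lack it. The share was 50.8% ± 4.89 in neurons. Unthinned, it was 21.5% to 35.8% of progenitors and 53.4% to 67.8% of neurons, at median depths of 7936 to 11913 UMIs and 5496 to 8161 UMIs. The unthinned share was 20.2% of microglia and 7.84% of erythroid cells, at median depths of 9656 and 11387 UMIs.

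Epha4, whose protein also binds ephrin-B ligands, was abundant in both classes. Null progenitors held it at 470 and 627 CPM and WT progenitors at 369 and 381 CPM. Null neurons held it at 670 and 871 CPM and WT neurons at 557 and 498 CPM. Neurons were above progenitors within each library, although the null progenitors of replicate 2 exceeded the WT neurons, and the log2 fold change was 0.44 (SE 0.04, edgeR adjusted p = 1.49e-08). A UMI was found in 65.4% ± 5.77 of neurons and 61.0% ± 7.09 of progenitors at the thinned depth, and in 13 of 99 microglia. Barcodes with under 100 UMIs held Epha4 at 165 to 293 CPM, below both classes of the same library, and the part of free RNA in these shares was not tested.

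The other receptors were lower in range. Epha3 stood at 85.0, 106, 75.0 and 63.1 CPM in progenitors (every list of 4 gives the null pair first and the WT pair second, each in replicate order) and at 63.2, 86.6, 61.1 and 43.2 CPM in neurons. It was higher in progenitors in all 4 libraries, with a log2 fold change of -0.43 (SE 0.05, edgeR adjusted p = 5.93e-07). In barcodes with under 100 UMIs Epha3 was at 25.2 to 46.8 CPM, below both classes of the same library. Epha7 stood at 6.53, 9.13, 5.47 and 6.52 CPM in progenitors and at 9.78, 12.0, 6.30 and 8.57 CPM in neurons. Such barcodes held Epha7 at 5.90 to 8.38 CPM, above the progenitor level in null replicate 1 and WT replicate 1. The part of free RNA was not tested for Epha3 or for Epha7. The Epha7 log2 fold change of 0.38 (SE 0.09, edgeR adjusted p = 0.00138) fell to 0.03 (adjusted p = 0.861) when every cell was thinned to 3000 UMIs. It was also lost without the library term (0.36, adjusted p = 0.0736), and its adjusted p ranged from 0.000204 to 0.861 over the 16 alternatives. Its thinned share was 2.26% ± 0.376 of neurons and 2.30% ± 0.740 of progenitors, and 2 of 153 erythroid cells had a UMI (1.31%, 95% exact interval 0.159% to 4.64%), so a share of cells above background was not detectable for Epha7 at this depth.

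The ligands split by class. Efna3 was near the floor in progenitors, with 23, 18, 6 and 10 UMIs in the 4 libraries, equal to 0.820, 0.865, 0.364 and 0.750 CPM. In neurons it had 82, 74, 48 and 65 UMIs, equal to 3.82, 3.96, 3.40 and 5.06 CPM, so all neuron values lay above all progenitor values. Barcodes with under 100 UMIs held it at 1.11 to 3.47 CPM, above the progenitor level of the same library, and the part of free RNA was not tested. The log2 fold change was 2.41 (SE 0.19, edgeR adjusted p = 5.77e-09). Efna4 went the opposite way, with 23.3, 23.1, 22.2 and 24.7 CPM in progenitors and 13.6, 12.6, 13.3 and 13.2 CPM in neurons. Barcodes with under 100 UMIs held it at 11.1 to 17.3 CPM, around the neuron level, and the part of free RNA was not tested. The values of a class hardly differed between libraries, the classes did not overlap, and the log2 fold change was -0.87 (SE 0.06, edgeR adjusted p = 8.13e-10).

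Efna2 stood at 52.4, 58.9, 50.4 and 53.4 CPM in progenitors and at 68.0, 66.1, 61.1 and 60.3 CPM in neurons. The difference was small but in the same direction in 4 of 4 libraries, with a log2 fold change of 0.20 (SE 0.04, edgeR adjusted p = 0.000628). Barcodes with under 100 UMIs held Efna2 at 32.3 to 53.7 CPM, in null replicate 1 above the level of its progenitors, and the part of free RNA was not tested. Efna5, which in the mouse forebrain is known as a repulsive cue for axons and migrating neurons, stood at 43.2, 57.2, 39.6 and 40.3 CPM in progenitors and at 47.1, 55.5, 35.8 and 41.7 CPM in neurons. In barcodes with under 100 UMIs Efna5 was at 24.4 to 30.6 CPM, below both classes of the same library, and the part of free RNA was not tested. The classes overlapped and the log2 fold change of Efna5 was -0.05 (SE 0.05, edgeR adjusted p = 0.384). Without the LGE-like and CGE-like clusters and those led by the other class, it was -0.17 (adjusted p = 0.0126, with a range of 0.0126 to 0.979 over the alternatives). For Efna3, Efna4 and Efna5, 0 of 153 erythroid cells had a thinned UMI, which allows up to 1.96% of cells with a UMI by the limit of 3 counts, while Efna5 was found in 11.9% ± 1.83 of neurons and in 4 of 99 microglia.

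**Figure D1:**
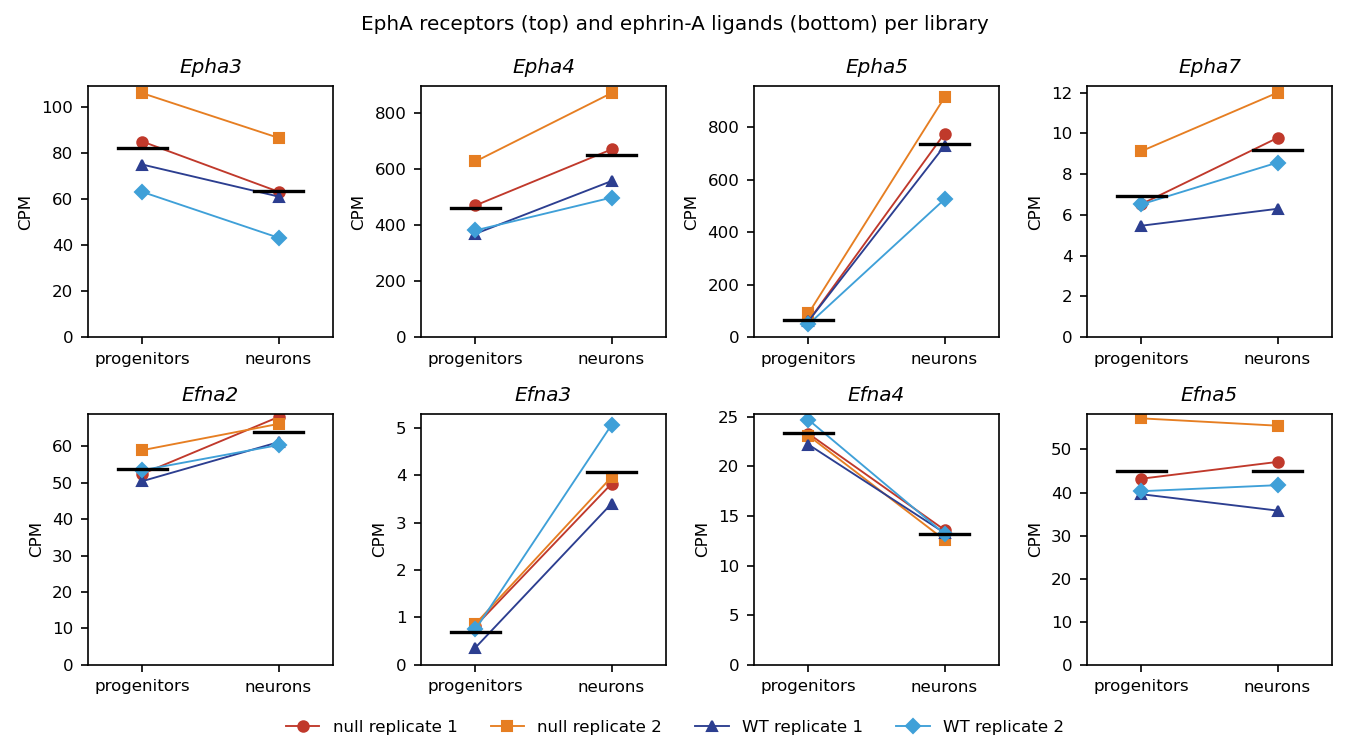
Level in CPM of the summed counts (y axis, from 0, a scale per gene) in progenitors and neurons for the 4 receptors (top row) and the 4 ligands (bottom row). Points joined by a line are the 2 classes of 1 library and black bars are means of the 4 libraries. Epha5 (mean 65.4 to 737 CPM) and Efna3 (0.700 to 4.06 CPM) rise in every library, Efna4 falls from 23.4 to 13.2 CPM, and Efna5 is level.

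Other genes of the pathway, from lists chosen with earlier results known, moved in both directions. Of the 6 other EphA and ephrin-A genes (Epha1, Epha2, Epha6, Epha8, Epha10 and Efna1) only 2 had enough counts to be tested, and both were higher in neurons by the edgeR quasi-likelihood test: Epha8 with a log2 fold change of 2.96 (SE 0.28) and Epha6 with 2.70 (SE 0.34). Both were near the floor, with 6, 7, 5 and 3 UMIs of Epha8 and 4, 7, 4 and 1 of Epha6 in progenitors. Their means in neurons were 2.33 and 1.41 CPM. Of the 8 EphB and ephrin-B genes, 8 passed, 3 higher in neurons and 5 in progenitors, with a median log2 fold change of -0.30 beside 0.02 over all genes tested. Both Efnb3 (2.54, SE 0.06) and Efnb2 (1.74, SE 0.05), ligands that EphA4 can bind, were higher in neurons, and Ephb6 less so (0.69, SE 0.15). The EphB receptors Ephb4 (-1.81, SE 0.11), Ephb1 (-0.69, SE 0.04) and Ephb2 (-0.39, SE 0.04) were higher in progenitors.

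Of 24 signalling partners, 23 were tested and 20 passed, 12 higher in neurons and 8 in progenitors, with a median log2 fold change of 0.30. Vav3, a guanine nucleotide exchange factor (2.84, SE 0.15), Anks1b, an adaptor of the family that binds Eph receptors (1.81, SE 0.08), and Ptpro, a phosphatase of Eph receptors (1.65, SE 0.06), were the 3 highest in neurons. The 3 highest in progenitors were Inppl1, which encodes the lipid phosphatase SHIP2 (-1.92, SE 0.07), Anks1 (-0.81, SE 0.05) and Sipa1l1, a GTPase-activating protein for Rap (-0.74, SE 0.05). These counts stand beside 80.6% of all genes tested, and nothing particular to the lists is read from them.

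The second question was which neuron and progenitor subtypes hold each receptor and ligand. Clusters were made from the same cells, so these levels are a description with no test, and each value is the CPM of a cluster's summed counts. The 8 members differed in how unevenly they were spread. From the lowest to the highest of the 33 clusters, Epha5 spanned 7.46 on the log2(CPM + 1) scale, a wider range than 99.7% of 8566 genes with a mean of at least 10 CPM, whose median span was 1.93. Epha4 spanned 4.09, Epha3 3.77, Efna5 3.13 and Efna4 3.10. Efna2 spanned 1.72, less than the median gene. Epha7 and Efna3 spanned 4.67 and 3.95, but at mean levels of 9.27 and 3.40 CPM, where counting error widens a span.

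Among neurons, Epha5 marked the cortical interneuron precursor-like clusters. In N6, with leading genes Thbs1, Mef2c, Gria1 and Cxcr4, it reached 2900, 2819, 3290 and 3103 CPM in the 4 libraries. In N1, led by Epha5 itself with Maf, Ackr3 and Neto1, it reached 1902, 2160, 1996 and 1763 CPM. Every library of N6 lay above every library of N1, and every library of N1 lay above the next cluster, N2, at 846 ± 112 CPM (SD, n = 4). From N2 down the order was not resolved, since N5, N3 and N11 at 745 ± 241, 708 ± 122 and 648 ± 185 CPM overlapped N2 and each other. The lowest levels were in N4 at 101 ± 14.9, N9 at 92.1 ± 14.6 and the LGE striatal-type-like N15 at 87.7 ± 16.7 CPM. N4 was led by Shh, Kitl, Lhx8 and Zic1, and N9 by Pde1a and Lypd6.

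Epha4 had another order. It was highest in N2, an unnamed cluster led by Neb, Epha4, Rfx4 and Pam, at 1381, 1752, 1372 and 1385 CPM. The next was N0, led by Prox1, Ccnd2 and Lmo1, at 1048, 1210, 932 and 927 CPM. All libraries of N2 lay above all of N0, and all of N0 above all of N1 (812 ± 107 CPM). From N1 down to N6 (613 ± 138 CPM) neighbours overlapped. Epha4 was lowest in N14 at 124 ± 95.8, N17 at 91.6 ± 28.4 and N11 at 85.7 ± 23.6 CPM, and N17 was also shallow, with a median of 3707 UMIs per cell.

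Set side by side, the 2 receptors shared some neuron clusters and differed in others. N0 held Epha4 at 1029 ± 133 CPM with Epha5 at only 256 ± 50.4 CPM, and N4 held Epha4 at 549 ± 107 CPM with Epha5 at 101 ± 14.9 CPM. N11, led by Dab1, Nrp2, Gbx1 and Adarb2, was the reverse, with Epha5 at 648 ± 185 CPM and Epha4 at 85.7 ± 23.6 CPM. N1 and N2 were above the rest of the neurons in both receptors in 4 of 4 libraries, whereas N6 was above the rest in Epha4 in only 1 of 4. At the thinned depth, 69.2% ± 6.30 of N1 cells, 62.1% ± 10.6 of N6 cells and 61.6% ± 3.99 of N2 cells had UMIs of both receptors, against 14.0% ± 7.68 in N11 and 6.94% ± 2.08 in N9. Over the 33 clusters the correlation of the 2 genes was weak (Pearson r = 0.24 on log2(CPM + 1), a description over clusters that share libraries).

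**Figure D2:**
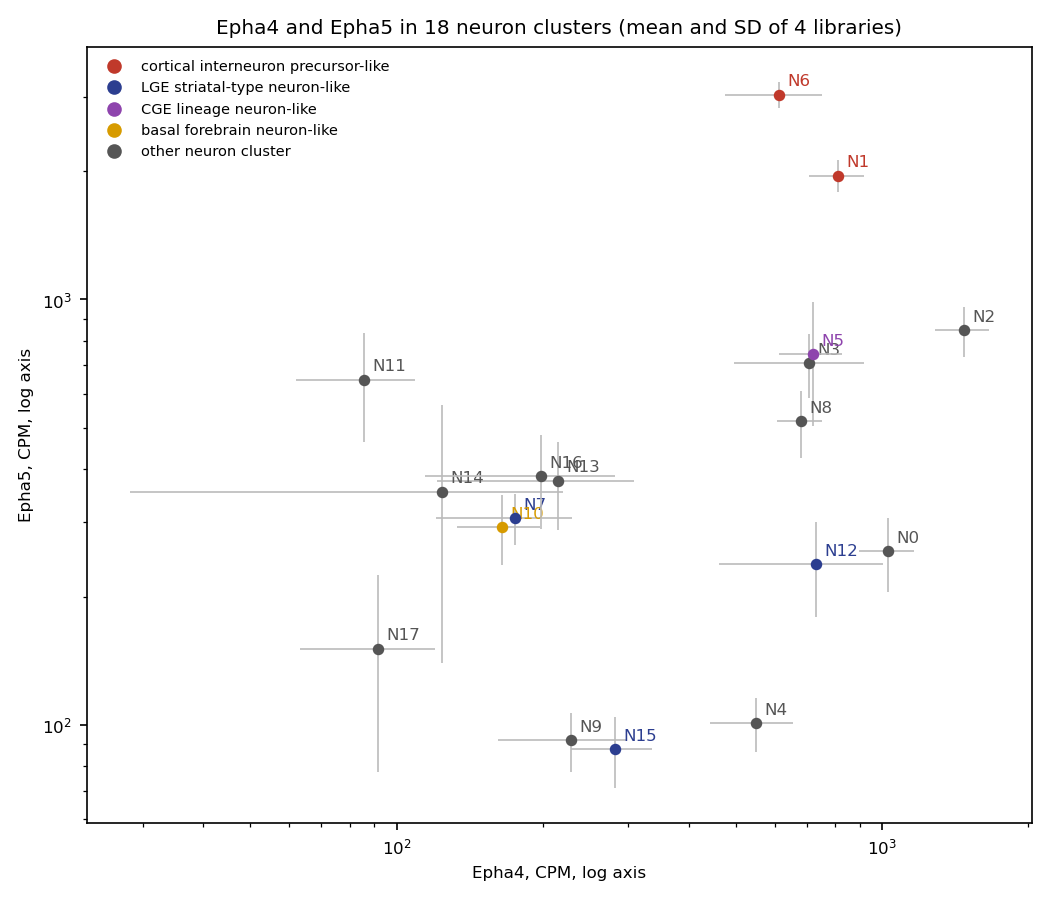
Epha4 (x axis) and Epha5 (y axis) in CPM, both on log axes, in 18 neuron clusters. Points are means and bars SDs of the 4 libraries, coloured by cluster name. N6 and N1 stand apart at 3028 and 1955 CPM of Epha5, N2 and N0 lie at the right with 1473 and 1029 CPM of Epha4, and N11 has Epha5 with little Epha4.

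Epha3 and Epha7 were spread differently again. Epha3 was highest in the LGE striatal-type-like N12 at 135, 189, 121 and 100 CPM and in N6 at 121, 131, 137 and 116 CPM, which overlapped each other. All libraries of N6 lay above all of the third cluster, N2, at 88.1 ± 18.9 CPM. Epha3 was lowest in N4 (14.2 ± 3.64), N11 (12.3 ± 3.86) and N17 (10.9 ± 1.30 CPM). Epha7 was highest in N16, led by Six3 and Tshz2, at 48.8, 65.5, 26.2 and 51.9 CPM, followed by N11 at 25.1, 23.6, 31.9 and 25.5 CPM, and the ranges of these clusters overlapped. It was at 0 in both null libraries of N3 and at 0.925 ± 1.27 CPM in N12. The Epha7 values of N3 and N12 rest on 0 to 7 UMIs a library and overlap, so their order was not resolved.

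Among the ligands, Efna5 was highest in the CGE lineage-like N5 at 88.0, 79.8, 76.2 and 63.9 CPM and overlapped with N13 (66.1 ± 14.3) and the LGE striatal-type-like N7 (65.6 ± 16.3 CPM). It was lowest in N11 at 9.40, 9.46, 5.79 and 11.7 CPM, below the mean of every other neuron cluster. In the Epha5-rich N1 and N6 it was at 32.8 ± 8.16 and 29.8 ± 5.63 CPM, lower than in the rest of the neurons in 4 of 4 libraries for each. Efna2 was the flattest, from 78.8 ± 6.85 CPM in N1 to 33.5 ± 16.6 CPM in N14, with each neighbour in the order overlapping the next.

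Efna3 and Efna4, the neighbours on chromosome 3, were opposed between classes and in the neuron clusters named here. Efna3 was highest in N14, led by Scg2 and Nr2f2, at 14.7, 23.5, 18.7 and 11.1 CPM and in N11 at 15.7, 23.6, 11.6 and 16.6 CPM. The next was the basal forebrain-like N10 at 9.93 ± 3.02 CPM. Efna4 was low in N11, at 0, 4.73, 0 and 7.83 CPM, and in N10, at 1.17, 2.71, 5.51 and 2.90 CPM. In N14 it was at 5.36, 20.9, 0 and 5.57 CPM, which was low except in null replicate 2, where all neurons were at 12.6 CPM. Efna4 had its highest mean among neurons in N0 at 28.1, 22.6, 24.3 and 26.6 CPM, where Efna3 was at 0, 0, 1.82 and 1.27 CPM. For Efna4, N0 overlapped the next cluster, N12 (21.9 ± 4.18 CPM). Of all pairs of members, these 2 had the strongest correlation over the 33 clusters, a negative one (Pearson r = -0.76, a description over clusters that share libraries and, for Efna3, rest on few UMIs).

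**Figure D3:**
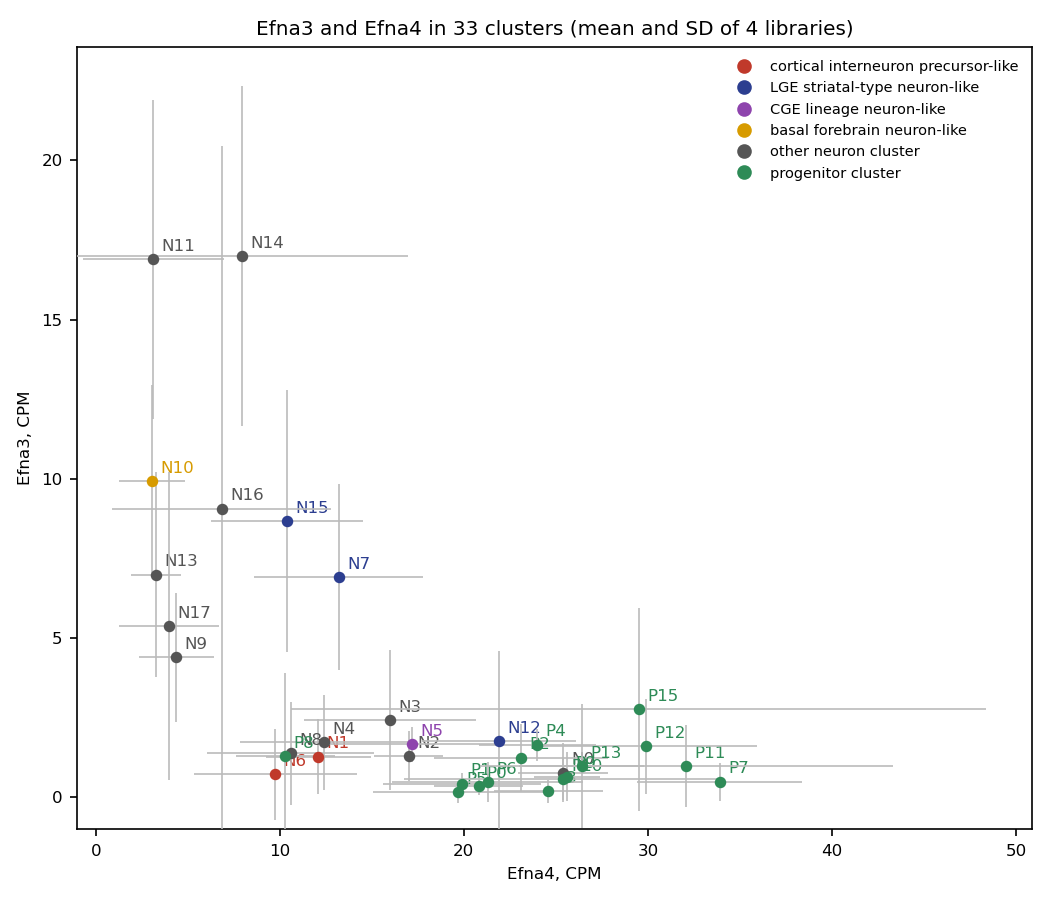
Efna4 (x axis) against Efna3 (y axis) in CPM, linear axes, in 33 clusters, with means and SDs of 4 libraries and progenitor clusters in green. The 8 clusters with Efna3 at 5.38 CPM or more have Efna4 at 13.2 CPM or less, and progenitor clusters lie along the bottom with Efna4 from 10.3 to 33.9 CPM.

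In progenitors Epha4 and Epha5 had the same 4 clusters at the top by mean (P0, P3, P9 and P13), and Epha3 and Epha7 shared another, P15. For Epha5, P9 stood at 48.1, 161, 64.4 and 60.4 CPM and overlapped the next cluster, P2. Epha4 was highest in P3 (834 ± 268), the dividing basal progenitor-like P9 (825 ± 178), P13 (775 ± 173) and P0 (743 ± 157 CPM), whose libraries overlapped. In the radial glia-like clusters P2, P5 and P12 it was at 283 ± 87.4, 275 ± 81.3 and 180 ± 71.1 CPM, below the rest of the progenitors in 4 of 4 libraries for each. Epha5 was highest in P3, at 174, 246, 128 and 97.8 CPM, and in P13, at 153, 153, 139 and 111 CPM. In barcodes with under 100 UMIs Epha5 was at 190, 152, 133 and 108 CPM. That is around these levels, except for P3 in null replicate 2, and the part of free RNA was not tested. P13 was led by Nav2, St18 and Npy, and P3 by Hbb-bs, Hist1h2bc, Ripor2, Maf, Mir124a-1hg and Rprm, and each had 0 markers of a progenitor type enriched. Maf and Mir124a-1hg are known from neurons.

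P15, a small cluster of 120 cells led by Prdm13, Luzp2 and Helt, was the highest progenitor cluster for Epha3, Epha7 and Efna5, and for Efna3 on only 2 UMIs. Epha3 stood there at 121, 180, 172 and 168 CPM, Epha7 at 16.5, 22.0, 15.7 and 29.0 CPM (only 6, 10, 3 and 5 UMIs) and Efna5 at 63.2, 88.0, 104 and 92.9 CPM. Each was above the rest of the progenitors in 4 of 4 libraries, though the ranges overlapped those of the next cluster. Efna4 was highest in P7, led by Sel1l3 and replication genes such as Cdc6 and Mcm6, at 31.1, 29.3, 38.9 and 36.4 CPM. Its range overlapped that of the next cluster, P11 (32.1 ± 11.2 CPM). Efna2 had its highest mean in P7 too, at 77.6 ± 10.3 CPM, which overlapped P4 (73.5 ± 9.11 CPM), and was low in the radial glia-like P5 (31.4 ± 3.04 CPM). P8, the lowest progenitor cluster for Epha3, Epha4, Epha7, Efna2, Efna4 and Efna5, had the lowest depth of the progenitor clusters, a median of 4144 UMIs per cell.

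**Figure D4:**
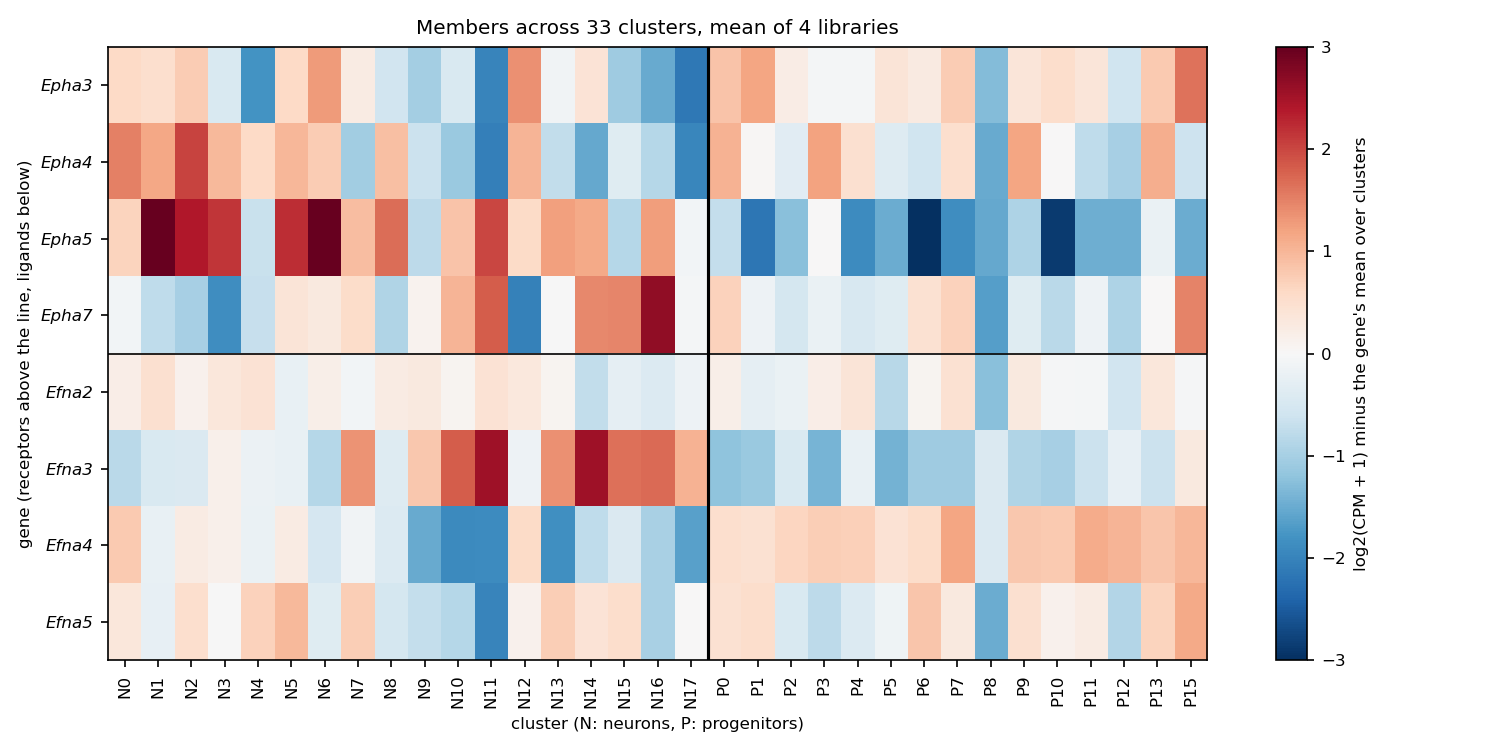
Colour gives log2(CPM + 1) of a cluster, mean of 4 libraries, minus the gene's own mean over the 33 clusters, for receptors (upper 4 rows) and ligands (lower 4 rows), with neuron clusters left of the line and progenitor clusters right of it. Epha5 is reddest in N6 and N1, Epha4 in N2, Epha7 in N16, Efna3 in N14 and N11, and Efna2 is pale except in P8. Colours are clipped at 3 in either direction, and rows cannot be compared in level.

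UMIs of receptors and ligands were also counted in the same cells. At the thinned depth, 82.5% ± 4.14 of neurons had a UMI of at least 1 of the 4 receptors and 31.3% ± 1.75 of at least 1 of the 4 ligands, and 26.1% ± 2.97 had both. In progenitors the shares were 70.6% ± 6.60, 29.5% ± 1.94 and 20.8% ± 3.44. In each class the mean share with both was close to the product of the separate mean shares. More than 1 receptor was found in 43.1% ± 7.37 of neurons and 22.0% ± 5.82 of progenitors. By neuron cluster, cells with both a receptor and a ligand ranged from 35.6% ± 2.10 in N12 and 33.9% ± 4.60 in N2 to 12.3% ± 3.82 in N17. Cells with a transcript can lack a UMI at this depth, and background RNA can add one, as for Epha4 in 13 of 99 microglia, so the shares are of cells with a UMI and not of cells that express the genes.

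The genes most like each member over the 33 clusters were found by the correlation of log2(CPM + 1) among 8566 genes, as a description. Epha5 was most like Pde4dip (Pearson r = 0.91), Gria4 (0.87) and Mef2c (0.87), of which Gria4 encodes an AMPA receptor subunit and Mef2c a transcription factor of cortical interneurons. Epha4 was most like Tiparp (0.89), Gm14964 (0.89) and Zfp516 (0.87). Efna3 was most like Lrfn5, Lin7a and Dlg2 (0.92 each), which encode synaptic adhesion and scaffold proteins, and Efna4 was most like Igf2bp1 (0.93), Abcd2 (0.92) and Mmp14 (0.91). Efna2 was nearest to Mpped2 (0.84), Ube2r2 (0.83) and Atxn7l2 (0.82). Correlations were lower for Epha3 (Chsy1 0.76, Patz1 0.76, Cdc42se2 0.75), Epha7 (Pip4k2a 0.76, Matr3 0.76, Agap3 0.75) and Efna5 (Xrn1 0.68, Cbfa2t2 0.67, Klhl13 0.66).

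The third question was whether loss of St18 changed the receptors and ligands. Epha4 was the member with the largest change relative to its error, higher in null than in WT libraries in neurons and in progenitors, but it did not pass the correction for multiple tests in either class. No member did. In neurons the edgeR quasi-likelihood test (adjusted p under 0.05) called 0 of 8 members and 10 of 13577 genes (0.0737%). Before adjustment, 1 of 8 members had a p under 0.05, Epha4, beside 17.3% of all genes. DESeq2 called 0 members, beside 6.75% of the 4742 genes to which it gave an adjusted p. It gave none to Epha7 in neurons. In progenitors 0 of 8 members and 4 of 13587 genes (0.0294%) passed the edgeR test, with 1 member, again Epha4, and 17.3% of all genes at an unadjusted p under 0.05. There DESeq2 called 0 members, beside 5.97% of the 5491 genes to which it gave an adjusted p. These p-values measure the spread between 2 pools per genotype, which may be technical in part, and sex differed between the groups.

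In neurons the null libraries held Epha4 at 670 and 871 CPM and the WT libraries at 557 and 498 CPM, so the genotypes did not overlap. The log2 fold change was 0.39 (SE 0.14, edgeR adjusted p = 0.220). It was 0.25 (adjusted p = 0.185) without null replicate 2, 0.54 (adjusted p = 0.00547) without null replicate 1, and 0.44 (adjusted p = 0.295) in male-classed cells, where the levels were 678, 931, 554 and 523 CPM. Over all alternatives the adjusted p ranged from 0.00547 to 0.871. In progenitors the null libraries held it at 470 and 627 CPM and the WT libraries at 369 and 381 CPM, again without overlap. The log2 fold change was 0.35 (SE 0.13, edgeR adjusted p = 0.245). It was 0.20 (adjusted p = 0.0216) without null replicate 2, 0.48 (adjusted p = 4.15e-05) without null replicate 1, and 0.33 (adjusted p = 0.255) in male-classed cells, with a range of 4.15e-05 to 0.888 over all alternatives. With 1 null library left, that library is assumed to vary like the WT pair, and 18.6% of genes in neurons and 29.6% in progenitors were then called without null replicate 1, and 2.17% and 10.2% without null replicate 2.

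A lack of overlap was common in these libraries. In neurons, 6 of 8 members (Epha3, Epha4, Epha5, Epha7, Efna2 and Efna5) had both null libraries above both WT libraries in CPM, as did 43.9% of 12649 genes with at least 1 CPM. In progenitors it was 5 of 8 members (Epha3, Epha4, Epha7, Efna3 and Efna5) beside 50.0% of 12551 genes, although Efna3 itself was under 1 CPM there. CPM scaled by library totals alone was itself higher in null libraries, with a median log2 fold change over all genes of 0.15 in neurons and 0.19 in progenitors, which the TMM factors of the main test remove. With library totals alone, the log2 fold change of Epha4 was 0.55 in both classes, with an adjusted p of 0.0469 in neurons and 0.0589 in progenitors.

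The other receptors had fold changes of the same sign in all cells, with errors too wide for a call. In neurons the log2 fold change was 0.36 for Epha3 (SE 0.18, edgeR adjusted p = 0.344), 0.28 for Epha5 (SE 0.17, adjusted p = 0.426) and 0.40 for Epha7 (SE 0.19, adjusted p = 0.302). In progenitors it was 0.27 for Epha3 (SE 0.13, adjusted p = 0.334), 0.25 for Epha5 (SE 0.17, adjusted p = 0.472) and 0.18 for Epha7 (SE 0.19, adjusted p = 0.630). Leaving out 1 library at a time moved these values from 0.04 to 0.65 in neurons and from 0.01 to 0.45 in progenitors, and none of the 3 was called without null replicate 2 or in male-classed cells. Without null replicate 2, Epha3, Epha5 and Epha7 were at 0.18, 0.21 and 0.31 in neurons and at 0.17, 0.02 and 0.01 in progenitors. In male-classed cells they were at 0.51, 0.46 and 0.62 in neurons and at 0.30, 0.34 and -0.02 in progenitors. Without null replicate 1, 5 members were called in progenitors: Epha3 (0.35), Epha4 (0.48), Epha5 (0.45), Efna4 (-0.28) and Efna5 (0.26).

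The ligands had fold changes of both signs. In neurons the log2 fold change was 0.25 for Efna5 (SE 0.13, edgeR adjusted p = 0.337), -0.00 for Efna2 (SE 0.12, adjusted p = 0.990), -0.16 for Efna4 (SE 0.15, adjusted p = 0.597) and -0.26 for Efna3 (SE 0.24, adjusted p = 0.594). In progenitors it was 0.13 for Efna5 (SE 0.13, adjusted p = 0.610), -0.09 for Efna2 (SE 0.11, adjusted p = 0.669), -0.20 for Efna4 (SE 0.12, adjusted p = 0.402) and 0.45 for Efna3 (SE 0.43, adjusted p = 0.608), which rests on 6 to 23 UMIs a library. Without null replicate 2, Efna2, Efna3, Efna4 and Efna5 were at 0.07, -0.23, -0.05 and 0.19 in neurons and at -0.11, 0.47, -0.13 and -0.01 in progenitors. In male-classed cells they were at 0.04, -0.22, -0.04 and 0.30 in neurons, and Efna2, Efna4 and Efna5 were at -0.17, -0.08 and 0.14 in progenitors, where Efna3 had too few counts to be tested. No ligand was called in either class in these fits, which does not show that the genotypes were alike.

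**Figure D5:**
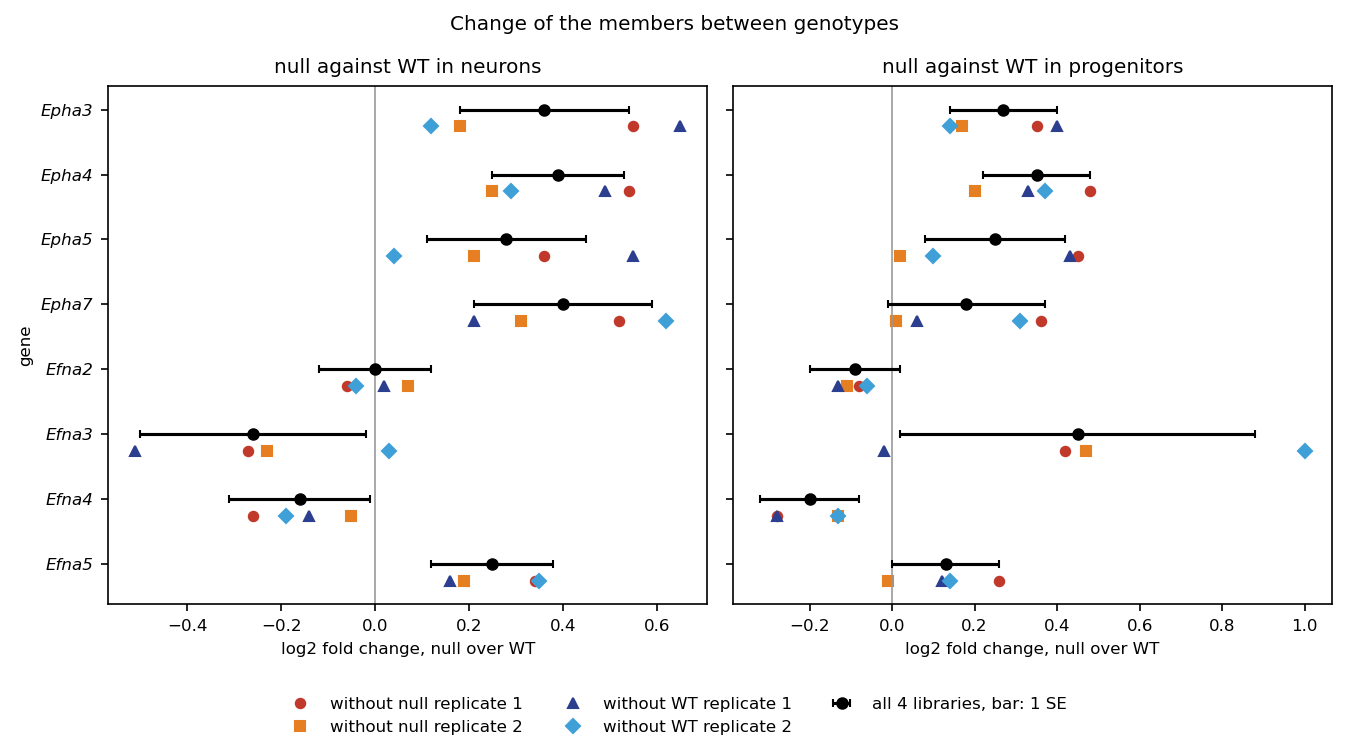
Log2 fold change of null over WT (x axis) for each member in neurons (left) and progenitors (right). Black points with bars are the fit of all 4 libraries with 1 SE, and coloured points leave out 1 library each. Receptors lie right of 0 in both classes, Epha4 at 0.39 and 0.35, and ligands lie on both sides of 0.

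The change of a class can come from the level within subtypes or from their proportions, and both were measured. Within clusters, Epha4 was higher in both null than in both WT libraries in 12 of 18 neuron clusters and in 12 of 15 progenitor clusters, and lower in 0. Of genes with a mean of at least 10 CPM, 4.93% of 8359 in neurons and 5.05% of 8352 in progenitors had that many clusters or more in the same direction, and the median gene had 4 in each class. Epha4 was taken because it had the highest count of the members in each class. It averaged 649 CPM in neurons and 462 CPM in progenitors, and the genes were not matched to that level. The percentages therefore do not show how rare its count is. Clusters share their libraries, so the counts of clusters are not independent. With all neuron clusters weighted equally, the ratio of mean null to mean WT CPM of Epha4 was 0.31 on the log2 scale, compared with 0.55 over all neurons, and for Epha5 it was 0.14 compared with 0.43. It was also lower with equal weights for Epha3, Efna4 and Efna5, but not for Epha7 (0.56 and 0.55), Efna2 (0.21 and 0.14) or Efna3 (0.17 and -0.12). These ratios use library totals alone, under which the median gene over all neurons was at 0.15, so they do not compare with the main test. In progenitors the Epha4 ratio was 0.54 with equal weights and 0.55 over all cells.

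The Epha4-rich cluster N2 made up 10.2% and 21.2% of neurons in the null and 3.43% and 3.46% in the WT libraries, and the Epha5-rich N6 made up 4.91% and 12.1% in the null and 3.96% and 1.84% in the WT libraries. Other clusters with high levels went the other way on average or overlapped: N1 made up 16.2% and 3.67% of null and 13.1% and 9.43% of WT neurons, N0 12.8% and 9.51% against 12.5% and 13.0%, and N3 3.28% and 2.21% against 16.3% and 12.8%. The genes that define these clusters may themselves differ between genotypes, so the shares are given as values only, and their part in the class levels was not tested. Within N2, Epha4 overlapped between genotypes, since the null libraries held 1381 and 1752 CPM and the WT libraries 1372 and 1385 CPM. Within N6, Epha5 was lower in null (2900 and 2819 CPM) than in WT libraries (3290 and 3103 CPM), the opposite of its class sum. Over the 18 neuron clusters, Epha5 was higher in both null than in both WT libraries in 10 and lower in 2. The median gene with a mean of at least 10 CPM was higher in 4 and lower in 2. Markers of pallial excitatory neurons summed to 68.3 CPM in the neurons of null replicate 2, the library with the highest Epha4 and Epha5, and to 3.25 to 12.9 CPM in the others. Markers of LGE striatal-type neurons summed to 2091 and 2403 CPM in the null and 1904 and 1569 CPM in the WT neurons, and those of CGE lineage neurons to 480 and 556 CPM and to 358 and 439 CPM. Markers of cortical interneuron precursors (3543 and 4105 against 3490 and 3022 CPM) and pallidal candidate neurons (1119 and 1352 against 1048 and 1082 CPM) were also higher in null. Those of basal forebrain neurons were lower (471 and 430 against 501 and 629 CPM). Such CPM is scaled by library totals alone, under which the median log2 fold change over all genes in neurons was 0.15. Without the LGE-like and CGE-like clusters and those led by the other class, the log2 fold change in neurons was 0.47 for Epha4 (edgeR adjusted p = 0.163) and 0.30 for Epha5 (adjusted p = 0.424), while the part of pallial cells was not tested.

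The difference between the genotype effects of neurons and progenitors was tested as an interaction term by the edgeR quasi-likelihood test. Of the 8 members 0 were called, beside 0.753% of 14345 genes. An unadjusted p under 0.05 was reached by 0 members and by 1189 of the 14345 genes, so the count of 0 is not read as a result about the members. The estimates for Epha4 (0.08, SE 0.06, adjusted p = 0.813) and Epha5 (0.07, SE 0.08, adjusted p = 0.872) were small beside the genotype effects themselves. Without null replicate 2 they were 0.02 and 0.16, and male-classed cells were not fitted for this term. The widest was that of Efna3 (-0.66, SE 0.48, adjusted p = 0.776), which was -0.72 without null replicate 2. No other Eph, ephrin or signalling partner gene of the 3 lists was called between genotypes by the edgeR quasi-likelihood test, with 2, 8 and 24 genes of the lists tested in neurons and 0, 8 and 23 in progenitors. The 8 EphB and ephrin-B genes had a median log2 fold change of 0.15 in neurons and 0.26 in progenitors beside -0.00 over all genes in both, and the signalling partners 0.10 and 0.06.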

How the data were processed

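Single-cell libraries of the MGE (10x Genomics, 4 pools) were analysed from the deposited raw UMI counts per gene and barcode. Per the labels the authors made these counts with Cell Ranger 5.0.1 on GRCm38, whereas the file headers name major version 4. Strand use in counting is not given in the sources used here. Members and gene lists were chosen with earlier results of these data known. Cells had at least 3000 UMIs and at most 10% mitochondrial UMIs. The top Scrublet scores (3.09% to 5.31% of the cells of a library) were left out as doublets, since its own threshold called 0 to 2 cells a library. Seurat clustering used 2000 variable genes, chosen here without Eph and ephrin genes, regression of the S minus G2M score, 49 components as in the study, and resolution 1.4. Summed counts of each class in each library were tested with edgeR 4.0.16 (quasi-likelihood, TMM, filterByExpr, Benjamini-Hochberg adjustment), with the library as a term between classes. DESeq2 1.42.0 was an alternative. Scripts were tested on simulated data. CPM scales summed counts to 1000000. Shares used cells thinned to 3000 UMIs, with exact (Clopper-Pearson) 95% intervals that cover counting error only, and 3 counts as the limit a count of 0 allows. Named genes were all members, up to 3 called genes per pathway list and direction, and the 3 genes most like each member. Promoters matched all 8 members.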

Additional observations from a re-analysis of the deposited data

How the results depend on the processing

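Of 128 gene values between classes 122 kept their direction and side of the threshold, and so did 110 of 120 between genotypes in neurons, 108 of 118 in progenitors and 41 of 48 for the difference of the genotype effects. With library totals alone 1 member was called in neurons. Leaving out 1 library gave 0 to 1 members called in neurons and 0 to 5 in progenitors, and 63 to 2547 genes in neurons, 7 to 4073 in progenitors and 10 to 183 for the difference. Genes called in neurons (10) became 337 with library totals alone, 310 without a filter, 320 with DESeq2, 136 with thinned cells, 36 with no doublets left out and 1 in male-classed cells. In progenitors (4) they became 7 with RLE factors, 110, 888, 328, 105, 90 and 0 under library totals alone and the same settings in that order. Reversed between classes was Efna5, at 0.00 with library totals alone, 0.06 thinned and 0.00 in male-classed cells. Reversed between genotypes in neurons were Efna2, at 0.14 with library totals alone, 0.07 without null replicate 2, 0.02 without WT replicate 1, 0.01 without a filter, 0.06 in cells of at least 5000 UMIs, 0.02 with no doublets left out and 0.04 in male-classed cells, and Efna3, at 0.03 without WT replicate 2. In progenitors they were Epha7 at -0.02 in male-classed cells, Efna2 at 0.10 with library totals alone, Efna3 at -0.02 without WT replicate 1 and Efna5 at -0.01 without null replicate 2. For the difference they were Epha3 at -0.01 without null replicate 2, Epha4 at -0.03 without WT replicate 2, Epha5 at -0.01 with library totals alone and -0.14 without null replicate 1, Efna2 at -0.04 and Efna4 at -0.04 without null replicate 1, and Efna4 at -0.01 without WT replicate 2. Leaving out 1 library at a time gave ranges of -0.06 to 0.07 for Efna2 and -0.51 to 0.03 for Efna3 in neurons, -0.02 to 1.0 for Efna3 and -0.01 to 0.26 for Efna5 in progenitors, and, for the difference, -0.01 to 0.27 for Epha3, -0.03 to 0.19 for Epha4, -0.14 to 0.16 for Epha5, -0.04 to 0.18 for Efna2 and -0.04 to 0.17 for Efna4. The cause was not tested. Leaving out LGE-like and CGE-like clusters removed no progenitor cluster. The study describes the WT embryos as littermate controls. No paired analysis was possible because neither it nor the labels state which null pool and WT pool shared litters.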
